A study of Mus musculus with 6 samples.

Results

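The genes described here carry symbols of gene families of the motile cilium axoneme, the microtubule shaft of the beating cilia that clear mucus from the airways. They were taken from mouse fetal lung with the Scap gene deleted in respiratory epithelial cells and from control lung. Members were all genes measured by a probe set with exactly 1 symbol, that symbol beginning with Dnah, Dnai, Dnal, Tekt, Rsph or Cfap. Each gene was represented by its brightest probe set over all arrays. The rule gave 51 genes, read by 80 probe sets, of 18193 genes in all. Of the 51, 34 were bright enough to be tested and 17 lay below the brightness limit, a mean signal of 497.8, which is the median of all probe sets. Another 2 probe sets, one shared by Rsph3a and Rsph3b and one by Dnah7b and Dnah7c, were not used here.

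The Scap_ko group was 3 samples of whole lung at E18.5, shortly before birth, in which Scap had been removed from the respiratory epithelium. The Scap_control group was 3 samples of whole lung of the same age, and both groups came from mice of mixed FVB/N and B6 descent. The Scap protein escorts the SREBP transcription factors to the Golgi, where they are activated to drive sterol and fatty acid synthesis. Neither the promoter that drove the deletion nor the alleles of the controls are named in the sources used here. RNA was hybridised to 1 array per sample, and nothing in the labels says that the replicates were separate animals, so the spread behind each p-value may be partly technical. In whole lung, fewer ciliated cells and less RNA per ciliated cell cannot be told apart.

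A motile cilium has a ring of doublet microtubules around a central pair. Rows of dynein motors on each doublet, the outer and inner arms, slide it against its neighbour, and radial spokes pass signals from the central pair to the arms. Tektins and many proteins of the Cfap family (cilia and flagella associated proteins) sit inside or along the doublets or on the central pair. In the lung these structures are made by multiciliated airway cells, under the transcription factors FOXJ1 and the RFX family. Members were taken by symbol alone and are called axoneme genes here, but some are not parts of the axoneme. Cfap298 and Cfap300, for example, serve dynein arm assembly, and Cfap126 positions basal bodies. Some members are also used outside motile cilia.

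Array medians lay between 490.9 and 530.5 signal units. Scap itself read 1846.8, 3285.8 and 2702 in Scap_ko lungs, against 7264.1, 4194.6 and 3079.7 in Scap_control lungs. The groups overlapped (log2 difference -0.84, SE 0.33, limma adjusted p = 0.808; exact two-sided permutation p = 0.2, where 3 against 3 arrays cannot go below 0.1). With 1 array left out the difference ran from -1.12 to -0.50, and a second Scap probe set, below the brightness limit, had a difference of -0.40 with overlapping groups. The sources used here do not say whether either probe set lies inside the deleted stretch. Ciliated cell transcripts were present on every array. Foxj1, the master regulator of motile ciliogenesis, read 1814, 1806.3 and 1868.8 in Scap_ko lungs, against 1923.2, 1797.5 and 1882.6 in Scap_control lungs. The groups overlapped, with a log2 difference of -0.03 (SE 0.09, limma adjusted p = 0.986).

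More axoneme genes read below control than above it in the Scap_ko lungs, and no single gene passed the test. Every tested dynein heavy chain and tektin and all but 1 tested radial spoke gene read below control. Of the heavy chains and tektins, Dnah1, Dnah2, Dnah8 and Tekt1 changed sign with 1 array left out. Of the 34 tested members, 24 had a negative log2 difference (Scap_ko minus Scap_control), 70.6%, against 48.3% of all 10972 genes tested. The median member stood at 92% of control (log2 difference -0.12), while the median of all genes tested was 0.01. Without Rsph14, whose Scap_ko arrays all lay below the brightness limit, 23 of 33 members were negative (69.7%), with a median of -0.11. By limma, 0 members were called higher and 0 lower at a Benjamini-Hochberg adjusted p of 0.05, where 0.00911% of all genes were called higher and 0% lower. The smallest adjusted p of a member was 0.671.

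At an unadjusted p of 0.05, 7 members were lower, 20.6% of those tested, against 3.04% of all genes. At the same threshold 0 members were higher, against 2.88% of all genes. The count of 7 changed with some arrays left out, where fits also have fewer residual degrees of freedom. It stayed at 7, all lower, without Scap_ko replicate 3 or Scap_control replicate 2, against 3.90% and 3.38% of all genes lower. It was 2 without Scap_ko replicate 1 or Scap_ko replicate 2, with both members lower. This was 5.88% of members, against 2.62% and 2.36% of all genes lower in the same fits. It was 4 (11.8%) without Scap_control replicate 1 (3 of these lower and 1 higher), against 4.90% of all genes in either direction. Without Scap_control replicate 3 it was again 4, all lower, against 3.06% of all genes lower. Leaving out both arrays numbered 3 gave 5 (14.7%), all lower, against 3.75% of all genes lower. Without Rsph14, whose Scap_ko arrays all lay below the brightness limit, the count over all arrays was 6 of 33, 18.2%. The number of members with a negative difference lay between 21 and 26 when 1 array was left out, and was 25 without both arrays numbered 3.

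**Figure D1:**
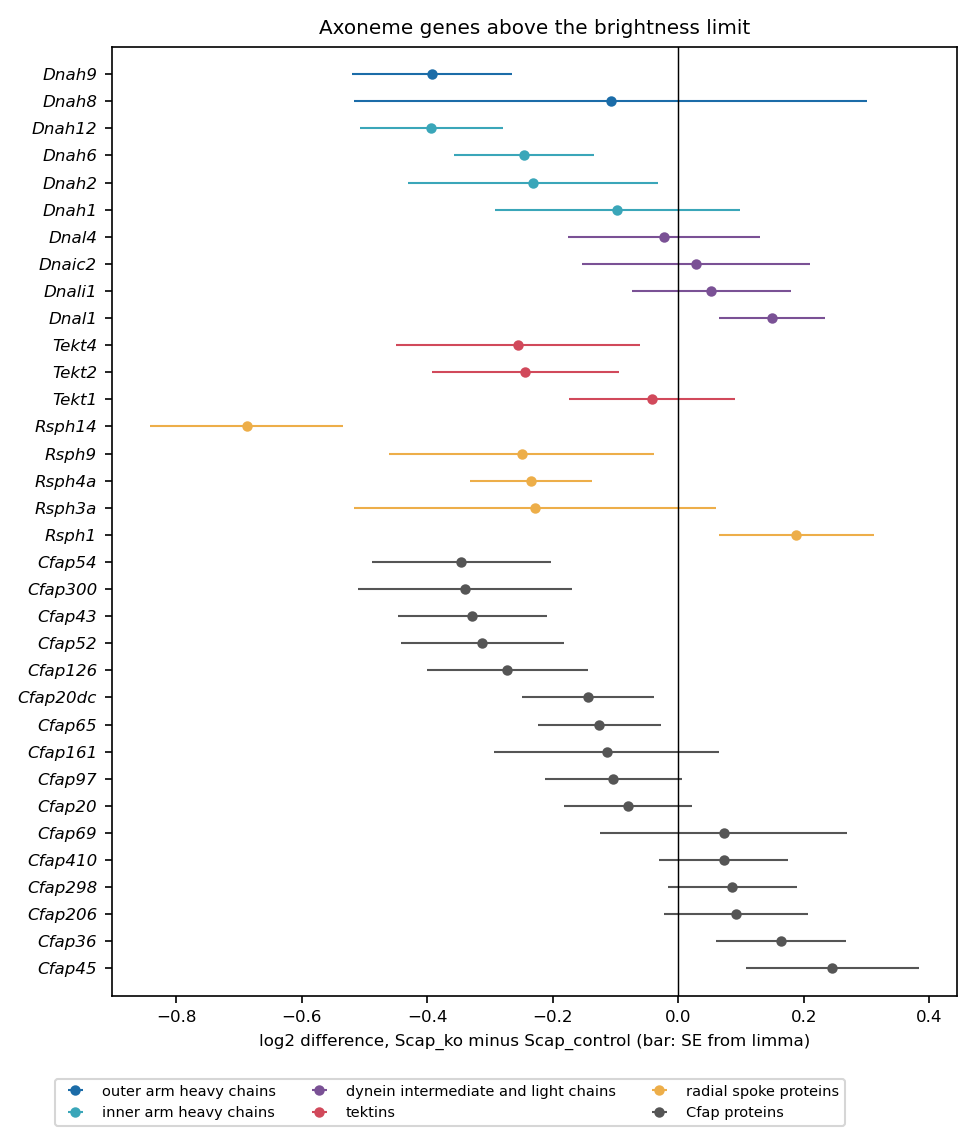
Log2 difference (Scap_ko minus Scap_control) of each of the 34 tested axoneme genes on the horizontal axis, with the standard error from limma as a bar, coloured by role. Both outer arm and all 4 inner arm heavy chains lie left of 0, while 3 of the 4 intermediate and light chains lie right of it.

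Dynein heavy chains, the motor subunits themselves, were below control in all 6 tested members. Dnah9, an outer arm heavy chain of the distal cilium, read 955.5, 978.8 and 1120.7 in Scap_ko lungs, against 1149.7, 1500.9 and 1374.1 in Scap_control lungs. Every Scap_ko array lay below every Scap_control array, at 76.2% of control (log2 difference -0.39, SE 0.13, limma adjusted p = 0.739). Dnah12, a single-headed inner arm heavy chain, read 867.3, 841.5 and 865.6 in Scap_ko lungs, against 1242, 974.2 and 1184.5 in Scap_control lungs. These groups did not overlap either, and the Scap_ko arrays lay close together (76.1% of control). The log2 difference was -0.39 (SE 0.11, adjusted p = 0.731).

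Dnah6, another inner arm heavy chain, read 1131, 1230 and 1374.4 in Scap_ko lungs, against 1568.7, 1353.4 and 1500.7 in Scap_control lungs. The highest Scap_ko array just exceeded the lowest Scap_control array, and the log2 difference was -0.25 (SE 0.11). Dnah2, also of the inner arms, read 375, 645.3 and 584.1 in Scap_ko lungs, against 658.5, 595.4 and 583.6 in Scap_control lungs. Its log2 difference of -0.23 (SE 0.20) came from Scap_ko replicate 1 and was 0.01 without that array. Dnah1, a further inner arm chain, had a log2 difference of -0.10 (SE 0.19), which turned to 0.03 without Scap_ko replicate 1 and 0.04 without Scap_control replicate 3.

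Dnah8, an outer arm heavy chain best known from sperm, behaved unlike the others. It read 1946.2, 1039.8 and 860.7 in Scap_ko replicates 1 to 3, against 2208.5, 1195.4 and 825.5 in Scap_control replicates 1 to 3. The arrays numbered 1 were highest in both groups, so the spread within a group was far larger than the difference between groups (log2 difference -0.11, SE 0.41). With the replicate number as a block the standard error was 0.10 and the limma adjusted p 0.808.

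Of the dynein intermediate and light chains, 3 of 4 tested genes lay above control, and their median was 102.8% of it (log2 difference 0.04). That direction rested on the arrays and probe sets used, since the median was -0.08 without Scap_ko replicate 3 and -0.04 with the mean of all probe sets of a gene. Dnal1, a light chain that binds the motor domain of an outer arm heavy chain, read 2920.4, 2788.6 and 2739.1 in Scap_ko lungs, against 2560.7, 2506 and 2544.1 in Scap_control lungs. It was the only tested member of which every Scap_ko array exceeded every Scap_control array, at 111% of control (log2 difference 0.15, SE 0.08, limma adjusted p = 0.879). Groups without overlap in this direction were found in 6.11% of all genes and in 2.94% of the tested members.

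Dnali1, an inner arm light chain, read 1450.9, 1293.2 and 1701.3 in Scap_ko lungs, against 1391.3, 1326.9 and 1549.6 in Scap_control lungs. The groups overlapped (log2 difference 0.05, SE 0.13), and a second Dnali1 probe set above the limit had a difference of -0.18. Dnal4, a light chain, stood at 98.4% of control (log2 difference -0.02, SE 0.15). Dnaic2, an outer arm intermediate chain whose probe set can match related transcripts, stood at 102% (log2 difference 0.03, SE 0.18). The sign of Dnal4 turned without Scap_ko replicate 2 or Scap_control replicate 3.

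Of the 5 tested radial spoke genes, 4 lay below control. Rsph14, a radial spoke protein, read 425.8, 326.1 and 434.6 in Scap_ko lungs, against 732.4, 554.4 and 621.7 in Scap_control lungs. All 3 Scap_ko arrays lay below the brightness limit of 497.8 and all 3 Scap_control arrays above it, so the gene was tested only through its control arrays. Its mean over all arrays lay just above the limit, and whether the Scap_ko signals are above background is not known. The fitted log2 difference was -0.69 (SE 0.15, limma adjusted p = 0.671), and the groups did not overlap. With the replicate number as a block the adjusted p was 0.249, and the difference was between -0.52 and -0.78 in each of the 3 pairs of arrays of the same number.

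Rsph4a, a protein of the spoke head, read 859.3, 838 and 980.3 in Scap_ko lungs, against 1066, 1060.8 and 1016.9 in Scap_control lungs. Its groups did not overlap, and the log2 difference was -0.23 (SE 0.10, adjusted p = 0.831). Rsph9, also of the spoke head, read 696.1, 579.9 and 908.6 in Scap_ko lungs, against 662.5, 906.7 and 1025.8 in Scap_control lungs. The wide overlap gave a log2 difference of -0.25 with SE 0.21, and -0.10 without Scap_ko replicate 2. Rsph1, another spoke head protein, pointed the other way, with 1938.4, 1882.3 and 2085.5 in Scap_ko lungs, against 1995.9, 1716.8 and 1500.3 in Scap_control lungs. Its groups overlapped through Scap_control replicate 1 (log2 difference 0.19, SE 0.12, adjusted p = 0.897). Spoke head genes thus did not share 1 direction. The median of the 5 tested spoke genes, Rsph14 included, was 85% of control (log2 difference -0.23, or -0.10 without Scap_ko replicate 2).

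**Figure D2:**
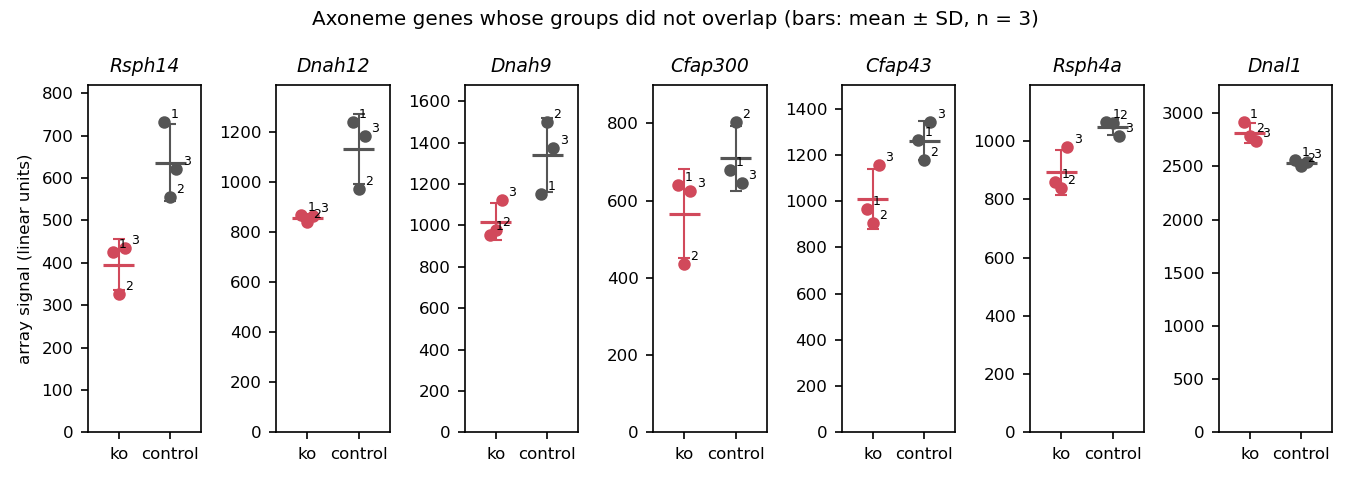
Signal (linear units, axes from 0) on each array for the 7 tested axoneme genes whose groups did not overlap, with Scap_ko in red and Scap_control in grey. Points carry the replicate number, horizontal bars are means and whiskers SD (n = 3). Rsph14, Dnah12, Dnah9, Cfap300, Cfap43 and Rsph4a lie lower in Scap_ko lungs, Dnal1 higher.

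Tektins, which form filaments along the inside of the doublets, lay below control in all 3 tested genes, and their median was 84.5% of it. Tekt5 and Tekt3, below the brightness limit and not tested, read above control with overlapping groups. Tekt2 read 686.4, 692.5 and 707.1 in Scap_ko lungs, against 870, 656.8 and 976 in Scap_control lungs. Scap_control replicate 2 lay below all Scap_ko arrays (log2 difference -0.24, SE 0.15, limma adjusted p = 0.889), and leaving out 1 array gave -0.41 to -0.12. Tekt4 read 917.6, 591 and 931.8 in Scap_ko lungs, against 1038.7, 820.6 and 1006.8 in Scap_control lungs. In both groups replicate 2 was the lowest array (log2 difference -0.25, SE 0.19), and the difference was -0.04 without Scap_ko replicate 2. Tekt1 stood at 97.1% of control (log2 difference -0.04, SE 0.13), and its sign turned without Scap_ko replicate 2 or Scap_control replicate 1.

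Promoter windows of 300 bases, 250 before and 50 after the gene start, were found in the RefSeq table (GRCm38.p6) for 43 of the 51 members, in 49 windows; the others were Rsph1, Rsph4a, Cfap53, Cfap54, Cfap65, Cfap97, Cfap157 and Cfap299. The windows were searched on both strands for GTTGCC, the half-site bound by RFX factors, and for TGTTTAC, a forkhead core that FOXJ1 can bind. The half-site was in 11 of 49 member windows, 22.4%, against 12.5% of all 32851 windows. The forkhead core was in 4 member windows, 8.16%, against 3.65% of all windows, and no copy of one motif overlapped the other in a member. Windows of all 3 tested tektins held the half-site, as did those of Cfap298 and Dnaic2, which lay above control. Among the tested members lower in Scap_ko without overlap, Cfap300 held the half-site and Cfap43 the forkhead core. Dnah9, Dnah12 and Rsph14 had windows with neither motif, and Rsph4a had no window. Whether a motif goes with a direction was not tested. A match describes letters in a window and is not a measured binding site.

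The stretches of Tekt1 and Tekt2 are shown as examples of windows that hold the half-site in both orientations. Windows of Cfap298 (above control) and Cfap20dc (below control) also held both orientations and are not shown. The stretches of Cfap300 and Cfap43 are shown because these genes held a motif and were below control with no overlap of the groups. Capitals mark the motif or its reverse complement, and all 4 are on the minus strand of GRCm38.p6, written 5′ to 3′ and ending before the gene start.
Tekt1, chr11:72361883-72361957: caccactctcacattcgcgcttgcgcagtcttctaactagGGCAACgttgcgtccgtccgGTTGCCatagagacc
Tekt2, chr4:126325689-126325824: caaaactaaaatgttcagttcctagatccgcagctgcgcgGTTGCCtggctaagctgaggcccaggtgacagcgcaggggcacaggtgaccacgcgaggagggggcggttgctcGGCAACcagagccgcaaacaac
Cfap300, chr9:8042952-8043037: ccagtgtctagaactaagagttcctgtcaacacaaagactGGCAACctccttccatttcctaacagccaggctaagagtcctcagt
Cfap43, chr19:47837370-47837456: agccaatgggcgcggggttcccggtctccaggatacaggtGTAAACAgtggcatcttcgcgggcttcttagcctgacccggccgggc
In Tekt1 the copies begin at positions -35 and -15 from the start, in Tekt2 at -96 and -22 and in Cfap300 at -122. From a second listed Tekt2 start its copies begin at -138 and -64. The forkhead core of Cfap43 begins at -55.

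The Cfap genes were the largest and most mixed group, with 10 of 16 tested members negative and 6 positive, and a median at 92.8% of control. Cfap43, a protein that tethers an inner arm dynein to the doublet, read 966.8, 905.7 and 1154.9 in Scap_ko lungs, against 1265.1, 1177 and 1343.2 in Scap_control lungs. Its groups did not overlap, at 79.7% of control (log2 difference -0.33, SE 0.12, limma adjusted p = 0.792), and a second Cfap43 probe set above the limit had a difference of -0.23. Cfap300, needed to assemble dynein arms, read 640.8, 434.7 and 623.5 in Scap_ko lungs, against 678.2, 803.8 and 645.6 in Scap_control lungs. Its groups were separated by a narrow gap, and its log2 difference of -0.34 (SE 0.17) became -0.16 without Scap_ko replicate 2.

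Cfap54, a central apparatus protein, read 947.1, 894.8 and 999.6 in Scap_ko lungs, against 1214.6, 996.3 and 1436.4 in Scap_control lungs. Only Scap_control replicate 2 fell among the Scap_ko arrays (log2 difference -0.35, SE 0.14, adjusted p = 0.831). Cfap52, a protein inside the doublet where its tubules join, stood at 80.5% of control (log2 difference -0.31, SE 0.13). Cfap126, which positions basal bodies, stood at 82.8% (log2 difference -0.27, SE 0.13). Cfap52 and Cfap126 were picked for mention on sight of their values. Groups without overlap and lower in Scap_ko were found in 6 of the 34 tested members, 17.6%, against 5.72% of all genes. Without Rsph14, which was tested only through its control arrays, this was 5 of 33.

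Members above control included Cfap45, a protein inside the doublet, with 750.2, 947 and 780 in Scap_ko lungs, against 718.8, 599.1 and 772 in Scap_control lungs. The groups overlapped between 750.2 and 772 (log2 difference 0.25, SE 0.14, adjusted p = 0.879). Cfap36 read 4395.5, 4065.9 and 3687.4 in Scap_ko lungs, against 3736.4, 3374 and 3716 in Scap_control lungs, again with overlap (log2 difference 0.16, SE 0.10). Cfap298, a dynein arm assembly factor, stood at 106.1% of control (log2 difference 0.09, SE 0.10). On the other side, Cfap20, a protein of the inner junction of the doublet, stood at 94.6% (log2 difference -0.08, SE 0.10). Cfap97 stood at 93.1% of control (log2 difference -0.10, SE 0.11), and its second probe set above the limit gave a difference of 0.02. The other 7 tested members, Rsph3a, Cfap20dc, Cfap65, Cfap161, Cfap69, Cfap206 and Cfap410, had overlapping groups and log2 differences between -0.23 and 0.09.

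Of the tested members 7 had a second probe set above the limit, and in 4 of these both probe sets had differences of the same sign. The exceptions were Dnali1, Cfap97 and Cfap410, the last with 0.07 in its brightest probe set and -0.58 in the other.

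**Figure D3:**
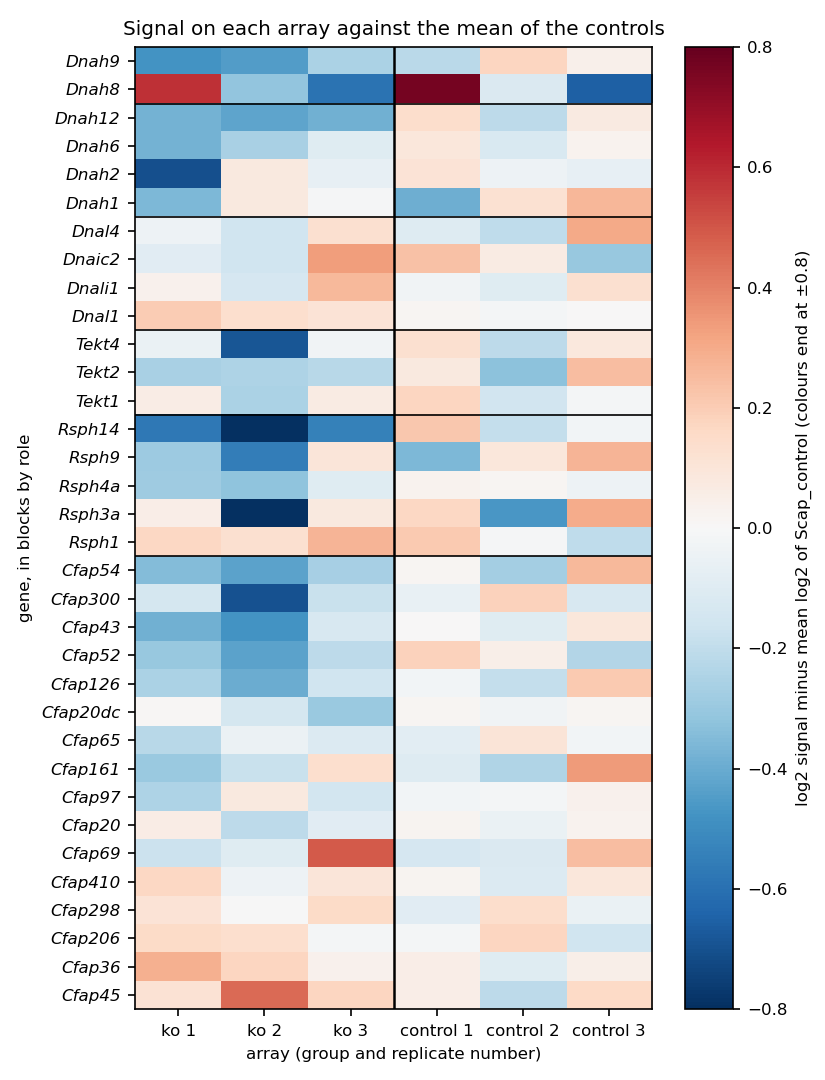
Log2 signal of each tested axoneme gene on each array minus the mean log2 of the Scap_control arrays, with Scap_ko arrays on the left and genes in blocks by role (blue lower, red higher). Scap_ko replicate 2 is the lowest Scap_ko array for 19 of the 34 genes, and Dnah8 differs between replicate numbers in the same way in both groups.

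The arrays of a group differed among themselves in a similar manner. Relative to the control mean, the median of the tested members was -0.16, -0.19 and -0.05 log2 in Scap_ko replicates 1 to 3, against 0.02, -0.10 and 0.04 in Scap_control replicates 1 to 3. The highest Scap_control arrays thus lay above all Scap_ko arrays, but Scap_control replicate 2 lay below Scap_ko replicate 3. Replicate 2 was the lowest array for 19 of the 34 members (55.9%) in each group, against 33.7% of all genes in Scap_ko lungs and 43.9% in Scap_control lungs. Replicate 3 was the highest for 20 members (58.8%) in Scap_ko lungs and 15 (44.1%) in Scap_control lungs, against 38.1% and 42.5% of all genes. Compared within pairs of the same number, 13 members, Rsph14 among them, were lower in Scap_ko in all 3 pairs, 38.2%, against 15.3% of all genes. In all 3 pairs 3 members were higher, 8.82%, against 15.6%. The 3 higher members were Dnal1, Cfap45 and Cfap410.

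The 17 members below the brightness limit were not tested, since whether such a probe set reads above background is not known. Of these, 11 had negative and 6 positive differences, against 58.8% negative among all 7221 genes below the limit. Just inside the limit were Rsph14 and Dnah2, given above. Just outside it, Cfap70 read 549.2, 537.9 and 453.1 in Scap_ko lungs, against 583.9, 499 and 359.8 in Scap_control lungs. Tekt5 read 730, 458.2 and 417.9 in Scap_ko lungs, against 343.4, 348.9 and 516.4 in Scap_control lungs. Dnah11, an outer arm heavy chain of the proximal cilium, read 498.7, 503.8 and 665.3 in Scap_ko lungs, against 153.2, 667.5 and 457.4 in Scap_control lungs. All 3 genes had overlapping groups.

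Groups did not overlap in 3 of the 17 dim members, all lower in Scap_ko, where 8.46% of all dim genes were lower without overlap and 3.49% higher. These were named after their values were seen. Dnah5, the outer arm heavy chain present along the whole cilium, read 212.8, 288.4 and 336.9 in Scap_ko lungs, against 453, 377.1 and 477.3 in Scap_control lungs. Dnah17, a sperm outer arm heavy chain, read 28.8, 26 and 22.1 in Scap_ko lungs, against 170.3, 76.9 and 153 in Scap_control lungs, signals far below the limit. Cfap299 read 385.8, 232.4 and 241.5 in Scap_ko lungs, against 486.6, 453.8 and 444 in Scap_control lungs. The other 11 dim members were Cfap221, Cfap57, Dnaic1, Cfap61, Cfap157, Dnah7a, Cfap53, Tekt3, Rsph6a, Cfap47 and Cfap97d1, with single-array signals between 3.4 and 669.7 and overlapping groups.

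Other genes of the motile cilium, in 9 lists with 72 tested genes, gave 0 calls by limma, and at an unadjusted p of 0.05 there were 5 higher (6.94%) and 6 lower (8.33%), against 2.88% and 3.04% of all genes. Their median log2 difference was -0.01, with 36 genes negative and 36 positive. The lists are given one by one, and differences between them were not tested. The central apparatus list had 5 of 7 tested genes negative and a median at 86.1% of control. Stk36, a kinase needed for the central pair, read 1765.9, 1989.1 and 2166.5 in Scap_ko lungs, against 2485.2, 2094.3 and 2454.5 in Scap_control lungs, with 1 array overlapping on each side (log2 difference -0.25, SE 0.12). Dpcd, its brightest gene, had a difference of 0.05 (SE 0.11).

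The list of axoneme rulers and the nexin-dynein regulatory complex, the link between doublets, had 5 of 6 tested genes negative and a median at 87% of control. Ccdc39, a ruler that sets the repeat along the doublet, had a log2 difference of -0.24 (SE 0.14). Iqca had -0.36 (SE 0.13, limma adjusted p = 0.793) with no overlap of the groups. Doublet inner proteins had 5 of 6 negative and a median at 88.6% of control, with Enkur at -0.42 (SE 0.17), again without overlap, and Nme7 at -0.05 (SE 0.11).

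Ciliated cell markers had 10 of 12 tested genes negative and a median at 85.6% of control. Tmem212 read 1671.4, 1150.1 and 2005.1 in Scap_ko lungs, against 2525.5, 2094.7 and 3730.2 in Scap_control lungs, with no overlap (log2 difference -0.79, SE 0.26, limma adjusted p = 0.747). Tuba1a, an alpha tubulin used in many cell types, had a difference of 0.18 (SE 0.11). The other tested marker above control was Tubb4b, named after its values were seen. Every Scap_ko array of Tubb4b exceeded every Scap_control array (log2 difference 0.26, SE 0.09, limma adjusted p = 0.792).

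The remaining lists had medians above control. Dynein arm assembly factors had a median at 106.3% of control over 5 tested genes. Zmynd10, a cytoplasmic assembly factor, read 921.4, 993.2 and 846.9 in Scap_ko lungs, against 756.4, 620.3 and 703.5 in Scap_control lungs. These groups did not overlap (log2 difference 0.41, SE 0.11, adjusted p = 0.731), while Dnaaf5 had a difference of -0.09 (SE 0.09). The docking complex stood at 103% over 3 genes, with Efcab1 at 0.17 (SE 0.15) and Ccdc151 at -0.31 (SE 0.20), and Dynlrb2, a light chain listed under another prefix, at 0.14 (SE 0.09).

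Intraflagellar transport, shared by motile and primary cilia, stood at 102% over 21 tested genes, with Ift81 at 0.08 (SE 0.15) and Ift57 at -0.38 (SE 0.15). In the list of transcription factors and centriole amplification genes, 9 of 10 tested members were positive, with a median at 112.7% of control. Deup1, which builds the deuterosomes that multiply centrioles, read 2015.6, 2390.2 and 1655.7 in Scap_ko lungs, against 1240, 1096 and 897.8 in Scap_control lungs. Every Scap_ko array exceeded every Scap_control array (log2 difference 0.90, SE 0.17, adjusted p = 0.551). Myb, a regulator of early multiciliated cells, had a difference of 0.11 (SE 0.11).

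**Figure D4:**
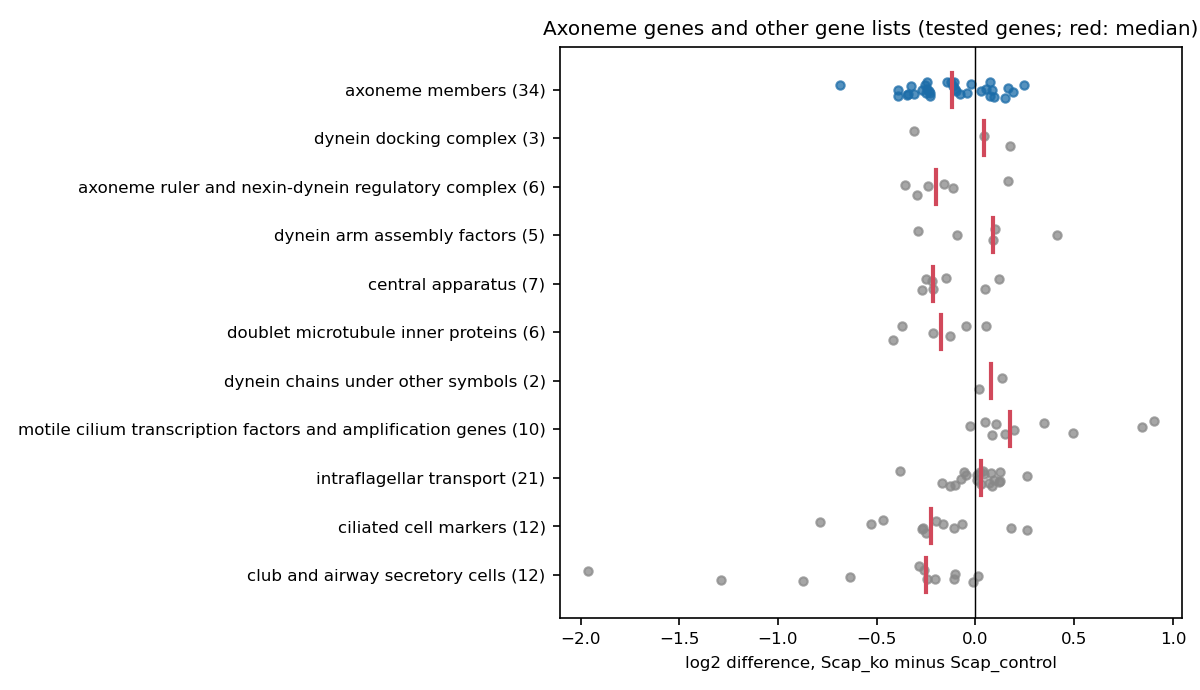
Log2 difference (Scap_ko minus Scap_control) of each tested gene, for the axoneme members (blue) and for other cilium lists and club cell markers (grey), with the number of genes in brackets and the median in red. The medians of the central apparatus, regulatory complex, doublet inner protein and ciliated marker lists lie between -0.17 and -0.22, and that of the transcription factor and amplification list at 0.17.

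Markers of other lung cell types lay on both sides of control. Of 12 club and airway secretory genes, all tested, 11 lay below control, and the median was 84% of it. Their summed signal was 172570.6 to 257058.9 in Scap_ko lungs, against 202818.9 to 303204.6 in Scap_control lungs. Endothelial markers were negative in 9 of 10 genes, with a median at 88.3% of control and a summed signal of 101837.4 to 108954.2 in Scap_ko lungs, against 109461 to 121866.2 in Scap_control lungs. Alveolar type II markers were negative in 9 of 11 tested genes, with a median at 90.1% and sums of 365320.1 to 439872.3 in Scap_ko lungs, against 407858 to 501272.9 in Scap_control lungs. General epithelial markers were positive in 11 of 16, with a median at 106.2% and sums of 142955.9 to 146123.2 in Scap_ko lungs, against 136033 to 142851 in Scap_control lungs. The other lists had medians at 83.8% of control for erythroid cells (2 tested genes), 95.5% for alveolar type I cells (10), 101.2% for fibroblasts and smooth muscle (12), 103.4% for leukocytes (8) and 105.5% for mesothelium, nerve and muscle (5). No listed marker had a signal of 0 on any array. The part of these cell types in the axoneme values was not tested.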

How the data were processed

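Total RNA of 6 samples of whole lung was hybridised to Affymetrix MOE430 V2 arrays, per the labels and the series design text. Intensity values for 45101 probe sets on each array were deposited by the authors on a linear scale. The submitters' processing notes name RMA, but the values are linear, are not quantile normalized and have a mean of 1500 after trimming 2% at either end, so the software and background correction behind them are not known. Column medians were 513, 503.2 and 498.5 for Scap_ko replicates 1 to 3, against 509.2, 530.5 and 490.9 for Scap_control replicates 1 to 3. Genes were not centred, and these are signals of 1 channel, not ratios.

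The log2 of the signal was taken with no pseudocount. Apart from 64 control probe sets, 45037 remained, of which the platform annotation gives 34945 a single symbol, 932 several symbols and 9160 no symbol. All 51 members were found by gene identifier in the RefSeq table with the same symbol. Genes with a mean log2 at or above the median of all probe sets (10972) were fitted by limma 3.58.1 (lmFit, eBayes; R 4.3.3) with 4 residual degrees of freedom and Benjamini-Hochberg adjustment over all genes tested. Differences are on the log2 scale, percent of control is their antilog, and the fit was checked on simulated data. The number of arrays limits the precision.

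Members, gene lists and tests were chosen with earlier results of these data known. Named genes were, by rule, Scap, Foxj1, the 3 brightest tested members of each role, the 5 of smallest p in each direction, those whose groups did not overlap, the 3 nearest below and 2 nearest above the limit, and from each cilium list the brightest gene and that of smallest p. Further members were added so that the full list is accounted for. Genes marked as named after their values were seen fall outside the rule.

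Titles number the replicates 1 to 3 in both groups. Across genes, arrays of the same number deviated from their group means together (correlations of 0.17, 0.20 and 0.43). Arrays of the same number were therefore also compared as pairs, and the number was a block in an alternative fit. The main limma fit was unpaired, and it gave the standard errors and p-values wherever no block is named. The sources used here do not say what a number means. Scap_ko replicate 1 and Scap_control replicate 2 reached 0.18, so the pairing rests mainly on number 3.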

Additional observations from a re-analysis of the deposited data

How the results depend on the processing

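Across 15 alternative settings 0 members were called in either direction at an adjusted p of 0.05 by limma. With the replicate number as a block 6 members (17.6%) had an unadjusted p under 0.05, against 8.70% of all genes. Without it there were 7 (20.6%), against 5.92%. Here and below, these counts and shares take both directions together. The block changed no call of a member. That count was 4 with median centring (11.8%, against 5.11% of all genes), with the mean of all probe sets of a gene (16.7%, against 5.63%) and with a variance trend (11.8%, against 5.84%). It was 0 with the filter at the 75th percentile, against 6.27% of all genes, and 2 to 7 when 1 array was left out (5.88% to 20.6%, against 4.65% to 6.98%). The 75th percentile filter tested only 6 members, of which 3 were negative, and took the median over members to 0.035 and the spoke genes, then Rsph1 alone, to 0.19. With no filter the tektin median was -0.042, and without both arrays numbered 3 the Cfap median was -0.062. With 1 array left out the median over all tested members ran from -0.16 to -0.09, that of the outer arm heavy chains from -0.40 to -0.11, of the inner arm heavy chains from -0.32 to -0.087, of the dynein intermediate and light chains from -0.075 to 0.13, of the radial spoke genes from -0.38 to -0.098, of the Cfap genes from -0.12 to -0.055 and of the tektins from -0.36 to -0.039. Signs turned for Dnali1 (-0.062) and Cfap97 (0.085) with the mean of all probe sets, and for Dnal4 (0.053) without both arrays numbered 3. With 1 array left out, signs also turned for Dnah1 (-0.29 to 0.037), Dnah2 (-0.39 to 0.0054), Dnah8 (-0.45 to 0.28), Dnal4 (-0.12 to 0.13), Dnali1 (-0.052 to 0.15) and Tekt1 (-0.12 to 0.063). The cause was not tested. The other log2 differences of named members kept their sign in all settings where they were tested. Dim signals, near the level where background is unknown, limit what can be said of the 17 untested members.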
